A study of Mus musculus with 2 samples.

Results

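The genes described here are 10 heat shock chaperones and cofactors: Hspa1a, Hspa1b, Hspa8, Hsp90aa1, Hsp90ab1, Dnajb1, Dnaja1, Hspb1, Hspe1 and Bag1. They were chosen by symbol from the 27998 genes listed in both count matrices, and all 10 were found in each. The cells were pancreatic immune cells, sorted as CD45.1+ by flow cytometry, of female mice of the NOD/ShiLtJ background, an inbred strain in which T cells attack the insulin-producing islet cells and diabetes develops without any added agent. One group was 7 weeks old and the other 12 weeks old, and no further allele or treatment is named for either. Each age had 1 library, made with the 10x Genomics Chromium Single Cell 3' kit, which tags each captured RNA molecule with a unique molecular identifier (UMI) near its polyadenylated end. How many mice a library came from is not stated in the labels. Since each age had a single library, no test between ages was made, and age cannot be told apart from the library.

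Heat shock proteins keep other proteins folded. Hsp70 proteins bind unfolded stretches in a cycle driven by ATP, in which J-domain proteins (DNAJ) start ATP hydrolysis and nucleotide exchange factors such as BAG proteins release the nucleotide. Hsp90 takes over many signalling kinases and hormone receptors from Hsp70, small heat shock proteins hold unfolded proteins without ATP, and Hspe1 is the lid of the mitochondrial chaperonin. Some of these genes are switched on by heat shock factor 1 under stress or after tissue handling, while others are made at a steady level in nearly every cell. Hspa1a, Hspa1b, Dnajb1, Hspb1 and Hsp90aa1 were grouped as inducible and Hspa8, Hsp90ab1, Dnaja1 and Hspe1 as mainly constitutive, and Bag1 was kept apart.

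After filters, 1096 of 1113 cell barcodes were analysed at 7 weeks and 2766 of 2812 at 12 weeks, with 8408892 and 18707631 UMIs and medians of 5635 and 4939 UMIs per cell. The libraries shared 2 barcodes. Ptprc, which encodes CD45, had a UMI in 92.8% of cells at 7 weeks and 91.4% at 12 weeks. The 15 acinar marker genes, of which 1 was at 0 in each library, summed to 40.0 per 1000000 UMIs (written CPM) in the younger library against 253 CPM in the older. The 10 endocrine markers, none at 0, summed to 39.1 and 156 CPM. The cells of both libraries were clustered together without the 10 genes, and the ages were compared in the 9 classes that had 50 or more cells per library. They were B-like cells (174 at 7 weeks, 661 at 12 weeks), Naive T-like (117, 576), CD4 T-like (146, 256), CD8 T-like (130, 269), Regulatory T-like (59, 98) and Cycling-like cells (67, 144), and 3 clusters that met no name. These were cluster 3 (85, 86), led by Ncr1, Klra6, Klra1 and Cd160 with Cd3e at 424 CPM, cluster 5 (60, 173), led by Ifitm1, Ffar2 and Ppp1r14a, and cluster 10 (118, 225), led by Il7r, S1pr1, Itgb1 and Cd40lg with Cd3e at 503 and Cd4 at 314 CPM. The CD8 T-like class joined cluster 7 (66 cells, then 91) and cluster 8 (64, then 178), so a different cluster held most of it at each age. The B-like class joined cluster 1 (62 cells, then 157) and cluster 2 (112, then 504). The Naive T-like class joined cluster 0 (76, then 373), with Cd4 at 251 CPM, and cluster 16 (41, then 203), with Cd8a at 557 CPM.

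Hspa1a (ENSMUSG00000091971, GRCm38 chr17:34969190-34972156, minus strand) and Hspa1b (ENSMUSG00000090877, chr17:34956436-34959238, minus strand) are neighbouring genes of 1 exon each that encode the inducible Hsp70, and their near identity limits how reads can be told apart. Their coding sequences in the GENCODE M21 transcripts, 1926 and 1929 bases long, differed by 8 substitutions and a gap of 3 bases, which is 99.6% identity. Written with the Hspa1a base first, its coding position counted from the start codon and then the Hspa1b base, the substitutions were A156G, T795G, A921G, A1380G, A1416G, A1629G, C1881G and G1884A. The stretch from coding position 1371 to 1430 holds 2 of them, and is shown 5' to 3' on the coding strand (GRCm38 chr17:34970496-34970555 for Hspa1a and chr17:34957578-34957637 for Hspa1b) with the differing bases in capitals.
Hspa1a: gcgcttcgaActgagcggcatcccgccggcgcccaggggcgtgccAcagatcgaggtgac
Hspa1b: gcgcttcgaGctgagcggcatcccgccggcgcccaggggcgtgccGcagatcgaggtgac
A read that lies within such a stretch and misses the differing bases matches both genes.

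Of all 50-base windows of the Hspa1a coding sequence, 82.3% also occurred in Hspa1b, and of 100-base windows 68.1% did. None of the windows in the 3' untranslated region (810 bases in Hspa1a, 643 in Hspa1b, 68.4% identical) or in the last 500 bases were shared between the pair at either length. With other genes, 5.12% of the 50-base windows of the Hspa1a 3' untranslated region were shared. Reads of this kit fall mostly near the 3' end. Neither the read length nor the share of reads from each part is stated in the labels. The predicted gene Gm20481 overlaps Hspa1a on the opposite strand. The reference genome is that of another mouse strain, and NOD alleles can differ from it, so the windows describe the reference and not the reads.

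The other members differed widely in how much of their 3' end was unique. The last 500 bases of Dnajb1, Hsp90aa1, Dnaja1 and Bag1 shared no 50-base window with another annotated gene. Hsp90ab1 shared 7.76%, Hspe1 53.2%, Hspb1 54.5% and Hspa8 90.2%. The partners of Hspa8 were 13 genes, those of Hspe1 7 and those of Hspb1 2, and in each case 1 was listed in the count matrices. A match on either strand counted as shared. Bag1 shared no window anywhere in its transcript. Reads of Hspa8, Hspb1 and Hspe1 may therefore match more than 1 gene even near the 3' end. How far this makes their counts uncertain was not examined.

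**Figure D1:**
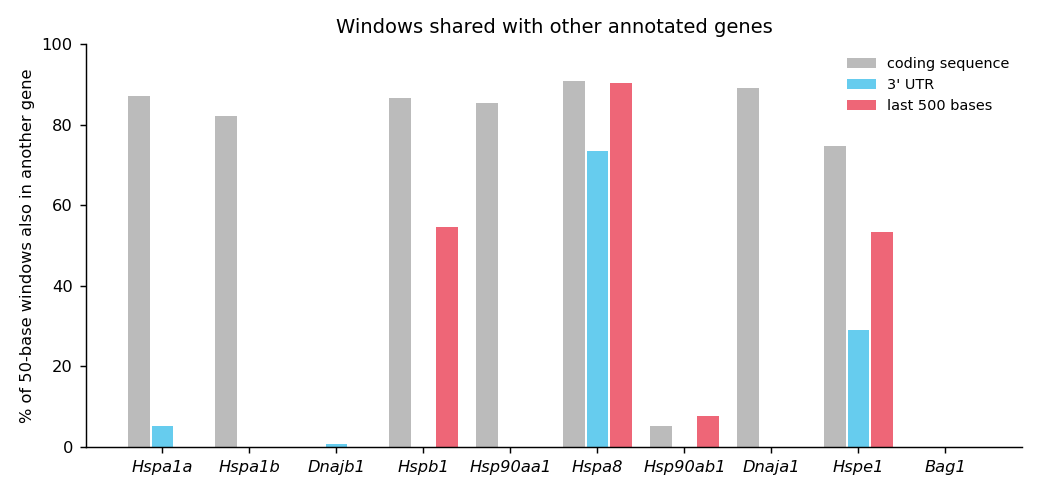
Percent of 50-base windows (vertical axis) of each member's transcript that also occur in another annotated gene, for the coding sequence (grey), the 3' untranslated region (blue) and the last 500 bases (red). Hspa1a and Hspa1b have over 80% of coding windows shared and no shared window in the last 500 bases, whereas Hspa8 stands at 90.2% there.

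As sums over all cells, the inducible genes were lower at 12 weeks than at 7 weeks, and the constitutive genes were lower by less. The 5 inducible genes summed to 2456 CPM at the younger age and 1864 CPM at the older, giving a ratio of 0.759 (95% interval 0.746 to 0.772). The 4 constitutive genes summed to 5434 and 4902 CPM, giving a ratio of 0.902 (0.892 to 0.912). The ratio of Hsp90aa1, 0.871, lay nearer to that of the second sum, and without it the inducible sum went from 1444 to 983 CPM, giving a ratio of 0.681 (0.665 to 0.696). All ratios are 12 weeks over 7 weeks, and all intervals cover counting error only, not the spread between mice or libraries.

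Past a fixed size of 1.5-fold, 3 of the 10 members were lower at 12 weeks (Hspa1b, Hspb1 and Bag1) and none higher. Among all 11486 genes with at least 30 UMIs, 8.62% were lower and 5.61% higher by that much, and the median ratio was 1.01. The counting interval of the ratio lay below 1 for 9 of the 10 members, all but Dnaja1, and above 1 for none, against 17.3% and 18% of all genes. Such an interval narrows as UMIs rise, and members had from 123 and 181 UMIs (Hspb1) to 19568 and 37650 (Hspa8). The genes behind the 2 shares needed only 30 UMIs, so the shares were not matched to the members for UMI count. With TMM scaling Dnajb1 also passed 1.5-fold, at 0.666. Without the cell richest in Hspb1 in each library, Hspb1 did not, at 0.719.

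The immediate-early genes, which respond to stimuli such as tissue handling, were also lower at 12 weeks as a sum. The 21 genes of a fixed list had a median ratio of 0.713, with 7 lower by over 1.5-fold and none higher, against 8.62% and 5.61% of all genes. They summed to 5570 CPM at the younger age and 4431 CPM at the older, giving a ratio of 0.795. Over the 9 classes their sum ran from 2252 to 8299 CPM at 7 weeks and from 1881 to 7115 CPM at 12 weeks, and its ratio was lowest in the B-like class (0.714) and highest in cluster 10 (0.895). The median mitochondrial share of UMIs was 1.97% at 7 weeks and 2.03% at 12 weeks. The part of these genes, of depth and of the higher acinar and endocrine RNA at 12 weeks in the chaperone values was not tested.

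In 8 of the 9 classes the inducible sum had a lower ratio than the constitutive sum. The inducible ratio ran from 0.519 (0.477 to 0.564) in cluster 3 and 0.600 (0.566 to 0.636) in CD8 T-like cells to 0.968 (0.918 to 1.02) in cluster 5. The constitutive ratio ran from 0.802 (0.758 to 0.849) in cluster 3 to 1.12 (1.05 to 1.19) in Regulatory T-like cells. Cluster 5 was the exception, with a constitutive ratio of 0.916 (0.883 to 0.951), and the intervals of the 2 sums overlapped there. They also overlapped in Cycling-like cells, where Hsp90aa1 held 1941 of the 2625 inducible UMIs at 7 weeks and 4300 of 4958 at 12 weeks.

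**Figure D2:**
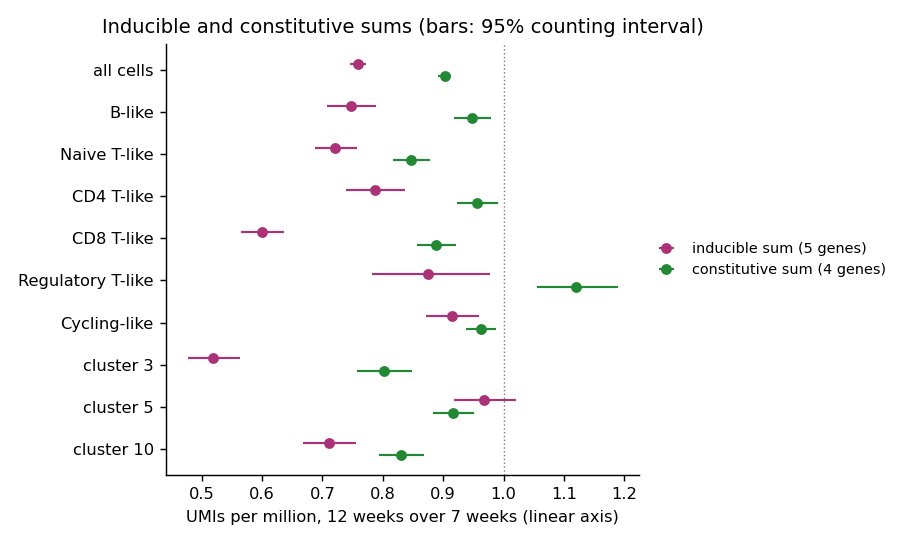
Ratio of CPM at 12 weeks over 7 weeks (horizontal axis, linear) for the inducible sum (purple, 5 genes) and the constitutive sum (green, 4 genes), over all cells and in 9 classes, with 95% counting intervals. The purple points lie left of the green ones in all classes but cluster 5, and 1 constitutive point, that of Regulatory T-like cells, lies right of 1.

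Hspa1a and Hspa1b, the inducible Hsp70 pair, were both lower at 12 weeks over all cells, and by unequal amounts. Hspa1a had 7446 UMIs at 7 weeks and 12482 at 12 weeks, or 885 CPM (865 to 906) and 667 CPM (656 to 679), giving a ratio of 0.753 (0.732 to 0.776). Hspa1b had 1540 and 1173 UMIs, or 183 CPM (174 to 193) and 62.7 CPM (59.2 to 66.4), giving a ratio of 0.342 (0.317 to 0.370). Counted as 1 feature, they stood at 1069 and 730 CPM, giving a ratio of 0.683 (0.665 to 0.702). A swap of reads within the pair would leave this sum unchanged. Any reads left out of the counts for matching both genes would be missing from the sum too, and their number is not known. The library at 12 weeks was the lower for each gene and for their sum.

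Hspa1b was over 1.5-fold lower at 12 weeks in 9 of 9 classes. Its ratio ran from 0.190 (0.138 to 0.259) in CD8 T-like cells, where it went from 177 to 33.7 CPM, to 0.498 (0.264 to 0.928) in Regulatory T-like cells, where it rested on 26 and 20 UMIs. Hspa1a passed the same size in 5 of 9, the B-like, CD8 T-like, Cycling-like and Regulatory T-like classes and cluster 3. The B-like ratio of 0.636 was 0.670 without the richest cell of each library and 0.711 as a mean over cells, neither of them past 1.5-fold. The B-like value was made of 0.446 (0.366 to 0.544) in cluster 1, where 1 cell held 19.8% of the 7-week UMIs, and 0.696 (0.625 to 0.775) in cluster 2. Only the value of cluster 1 was past 1.5-fold. The Hspa1a ratio was lowest in Cycling-like cells, at 0.344 (0.297 to 0.398), with 350 CPM at the younger age and 120 CPM at the older. A single cell held 21.5% of the Hspa1a UMIs of that class at 7 weeks, and without the richest cell of each library the ratio was 0.402.

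In Regulatory T-like cells 1 cell held 22.6% of the Hspa1a UMIs at 7 weeks, and the ratio of 0.628 became 0.721 without the richest cells, no longer past 1.5-fold. In CD8 T-like cells the Hspa1a ratio was 0.508 (0.458 to 0.563), made of 0.688 (0.585 to 0.808) in cluster 7 and 0.439 (0.383 to 0.503) in cluster 8. The Hspa1b ratios of these clusters lay closer together, at 0.199 (0.119 to 0.321) and 0.212 (0.137 to 0.324). Both were above the class ratio of 0.190. In cluster 5 Hspa1a was higher at 12 weeks, at 974 CPM (7 weeks) and 1198 CPM (12 weeks), giving a ratio of 1.23 (1.14 to 1.33), while Hspa1b went from 264 to 81.2 CPM, giving a ratio of 0.307 (0.25 to 0.378). Their sum in cluster 5 had a ratio of 1.03 (0.961 to 1.11).

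The summed pair differed more between the 9 classes than between ages. At 7 weeks it was lowest in Cycling-like cells (412 CPM) and highest in Naive T-like cells (1990 CPM), with a median over classes of 1035 CPM and a highest over lowest ratio of 4.83. At 12 weeks the same classes stood at the ends, at 135 and 1362 CPM, with a median of 473 CPM and a ratio of 10.1. From low to high, the other classes at 12 weeks were Regulatory T-like, then B-like, then CD8 T-like and CD4 T-like, and above them clusters 3, 10 and 5. Of the 8 neighbouring pairs in the order, 3 had overlapping intervals at each age. The Naive T-like class joined cluster 0, at 2462 and 1581 CPM, with cluster 16, at 1236 and 1011 CPM. Cluster 16 alone stood below clusters 3 (1720 CPM) and 10 (1527 CPM) at 7 weeks and below cluster 5 (1279 CPM) at 12 weeks. The ratio of the pair was 0.642 (0.596 to 0.693) in cluster 0, past 1.5-fold, and 0.818 (0.718 to 0.935) in cluster 16.

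**Figure D3:**
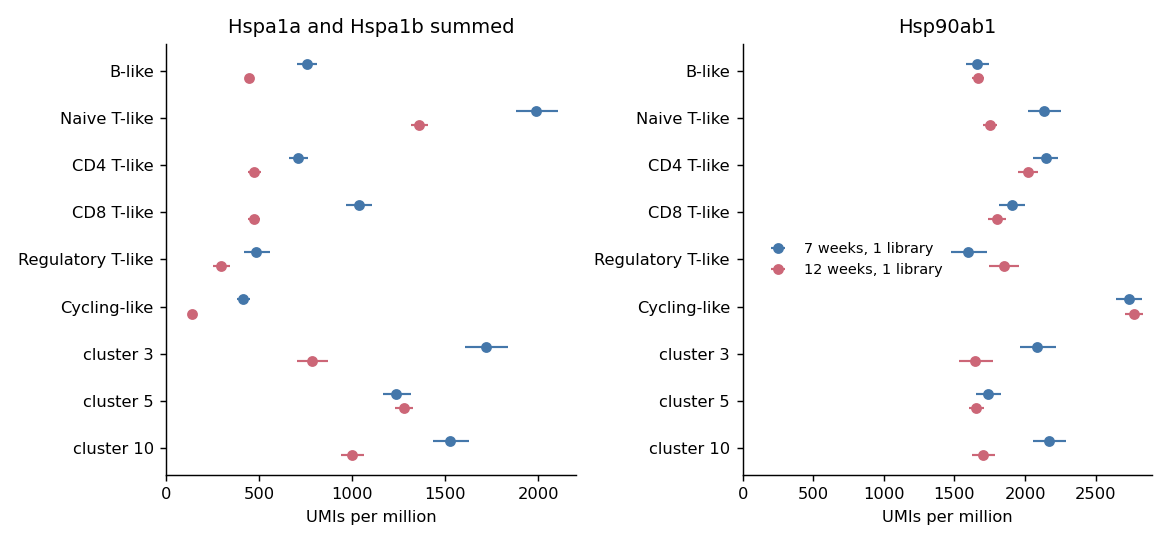
CPM (horizontal axis) of the summed Hspa1a and Hspa1b (left panel) and of Hsp90ab1 (right panel) in 9 classes at 7 weeks (blue) and 12 weeks (red), 1 library each, with exact 95% Poisson intervals. The Hsp70 pair spans 135 to 1990 CPM with Cycling-like cells lowest at both ages, and Hsp90ab1 spans 1598 to 2769 CPM with Cycling-like cells highest.

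Hspa1a took a larger share of the pair's UMIs at 12 weeks than at 7 weeks. Hspa1a held 82.9% of the pair's UMIs (exact interval 82.1% to 83.6%) in the 7-week library and 91.4% (90.9% to 91.9%) in the 12-week library. Its share was higher at 12 weeks in 9 of 9 classes, from 78.7% to 86.3% at 7 weeks and from 88.8% to 93.7% at 12 weeks, with no overlap of the 2 ranges. The intervals of the 2 ages overlapped in the Cycling-like and Regulatory T-like classes. The deposited counts do not show which part of a gene a UMI came from, so the part of read sharing in this split was not tested.

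**Figure D4:**
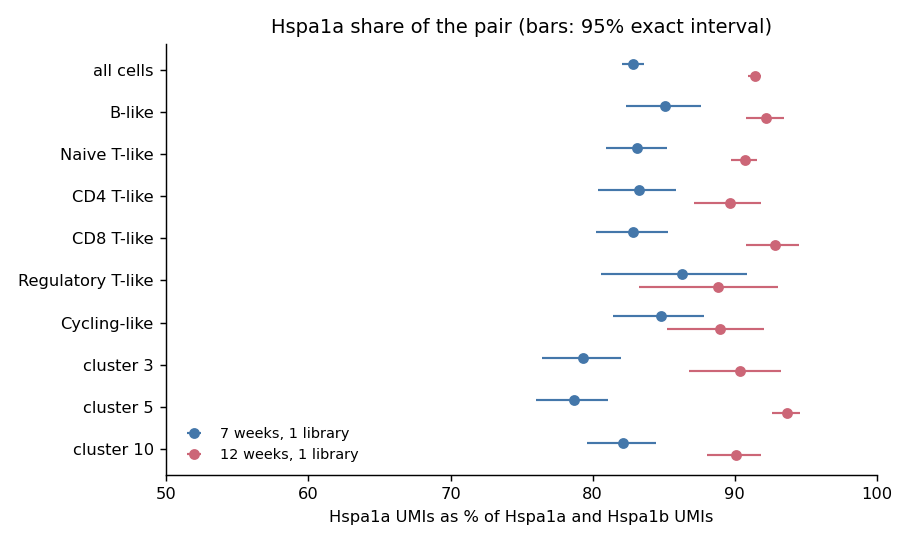
Hspa1a UMIs as a percent of the UMIs of Hspa1a and Hspa1b (horizontal axis, from 50% to 100%), over all cells and in 9 classes, at 7 weeks (blue) and 12 weeks (red), with exact 95% intervals. Every 12-week point lies right of its 7-week point, and the intervals overlap only in Regulatory T-like and Cycling-like cells.

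The Hsp70 pair was unevenly spread over cells. The median cell had 4 UMIs of the pair at 7 weeks and 1 at 12 weeks, and the richest 10% of cells held 45.3% and 53.2% of its UMIs. The constitutive sum had a median of 29.5 and 22 UMIs per cell, and its richest 10% of cells held 34.2% and 35.8%. In Naive T-like cells the median was 7 UMIs of the pair at 7 weeks and 3 at 12 weeks, and 11.1% and 26.0% of cells had none. In B-like cells it was 1 and 0 UMIs, and the share of cells with none was 38.5% and 52.6%.

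Dnajb1 (ENSMUSG00000005483, GRCm38 chr8:83608193-83612653, plus strand), the inducible J-domain partner of Hsp70, had 361 CPM (348 to 374) at 7 weeks and 243 CPM (236 to 250) at 12 weeks, giving a ratio of 0.674 (0.644 to 0.706). It was lower at 12 weeks in 9 of 9 classes, with ratios from 0.50 (0.412 to 0.606) in cluster 3 to 0.897 (0.739 to 1.09) in Cycling-like cells, and past 1.5-fold in 4. Of these 4, the B-like ratio of 0.637 was made of 0.514 (0.400 to 0.664) in cluster 1 and 0.703 (0.589 to 0.841) in cluster 2. The CD8 T-like ratio of 0.565 lay below those of both its clusters. These were 0.572 (0.454 to 0.720) in cluster 7 and 0.682 (0.541 to 0.864) in cluster 8, the latter not past 1.5-fold. At 7 weeks Dnajb1 stood at 483 CPM in cluster 7 and 243 CPM in cluster 8, and the mix of the 2 clusters changed between ages. Like the Hsp70 pair, Dnajb1 had its lowest CPM of the 9 in the deeply sampled Cycling-like cells, at 129 CPM at the younger age and 116 CPM at the older. Among the 9 classes its highest levels were 711 CPM in cluster 3 at 7 weeks and 451 CPM in Naive T-like cells at 12 weeks.

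Hspb1 (ENSMUSG00000004951, GRCm38 chr5:135887919-135889563, plus strand), the small heat shock protein Hsp25, was scarce, with 123 UMIs in 47 cells at 7 weeks and 181 UMIs in 62 cells at 12 weeks. Its level was 14.6 CPM (12.2 to 17.5) and 9.68 CPM (8.32 to 11.2), giving a ratio of 0.661 (0.523 to 0.839). A single cell held 17.9% of its UMIs at 7 weeks and 10.5% at 12 weeks. Cluster 5 held 70 of the 181 UMIs at 12 weeks, in 13 of its 173 cells, against 2 UMIs at 7 weeks. That was 2.38 CPM against 34.7 CPM, giving a ratio of 14.6 with an interval from 3.88 to 123, and 1 cell held 24.3% of the 12-week UMIs. No other of the 9 classes compared reached 30 UMIs over both libraries, and no ratio is given there.

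Hsp90aa1 (ENSMUSG00000021270, GRCm38 chr12:110690605-110702728, minus strand), the stress-inducible cytosolic Hsp90, had 1012 CPM (990 to 1033) at 7 weeks and 881 CPM (868 to 894) at 12 weeks, giving a ratio of 0.871 (0.848 to 0.894). Hsp90ab1 (ENSMUSG00000023944, GRCm38 chr17:45567775-45573271, minus strand), its constitutive paralog, had 2042 CPM (2011 to 2072) and 1877 CPM (1857 to 1897), giving a ratio of 0.919 (0.903 to 0.936). Their coding sequences were 76.6% identical. Of the 9 classes both had their highest CPM in Cycling-like cells at both ages, the class in which the CPM of the Hsp70 pair and Dnajb1 was lowest.

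In Cycling-like cells Hsp90aa1 stood at 1536 CPM at the younger age and 1647 CPM at the older, giving a ratio of 1.07 (1.02 to 1.13), and Hsp90ab1 at 2736 and 2769 CPM, giving a ratio of 1.01 (0.972 to 1.05). One cell held 12.1% of the class's Hsp90aa1 UMIs at 7 weeks. Elsewhere the Hsp90aa1 ratio ran from 0.641 (0.556 to 0.736) in cluster 3, its only value past 1.5-fold, to 1.06 (0.914 to 1.24) in Regulatory T-like cells. The Hsp90ab1 ratio ran from 0.784 (0.730 to 0.843) in cluster 10 to 1.16 (1.05 to 1.28) in Regulatory T-like cells, where it went from 1598 to 1848 CPM, and none was past 1.5-fold.

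Hspa8 (ENSMUSG00000015656, GRCm38 chr9:40800984-40810087, plus strand) encodes Hsc70, the Hsp70 made in unstressed cells, which also strips clathrin coats from vesicles. It had 2327 CPM (2295 to 2360) at 7 weeks and 2013 CPM (1992 to 2033) at 12 weeks, giving a ratio of 0.865 (0.850 to 0.880). Its ratio by class ran from 0.817 (0.750 to 0.888) in cluster 3 to 1.02 (0.927 to 1.11) in Regulatory T-like cells. Among the 9 classes its level ran from 1819 CPM in CD4 T-like to 2795 CPM in Cycling-like cells at 7 weeks, and from 1716 to 2540 CPM in the same classes at 12 weeks. The highest class was thus 1.54 and 1.48 times the lowest, and 7 of 8 neighbouring pairs in the order had overlapping intervals at each age.

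Dnaja1 (ENSMUSG00000028410, GRCm38 chr4:40722150-40737149, plus strand), a J-domain partner of Hsc70, had 425 CPM (411 to 439) and 412 CPM (403 to 422), giving a ratio of 0.971 (0.933 to 1.01). Its ratio by class lay between 0.775 (0.640 to 0.937) in cluster 3 and 1.24 (1.03 to 1.51) in Regulatory T-like cells. Of the 9 classes it was highest in Naive T-like cells (600 and 569 CPM) and lowest in cluster 5 (317 and 308 CPM). Dnajb1 and Dnaja1 thus differed in their ratios over all cells, 0.674 against 0.971, with intervals that did not overlap.

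Hspe1 (ENSMUSG00000073676, GRCm38 chr1:55088132-55091307, plus strand), the mitochondrial Hsp10, had 640 CPM (623 to 658) and 600 CPM (589 to 611), giving a ratio of 0.937 (0.907 to 0.968). Its ratio ran from 0.789 (0.711 to 0.876) in CD8 T-like cells to 1.36 (1.11 to 1.66) in Regulatory T-like cells, where 1 cell held 18.4% of the 7-week UMIs. Of the 9 classes it was highest in Cycling-like cells, at 954 CPM at the younger age and 902 CPM at the older. One of those cells held 16.7% of the class's Hspe1 UMIs at 7 weeks.

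Bag1 (ENSMUSG00000028416, GRCm38 chr4:40936398-40948294, minus strand), a nucleotide exchange factor of Hsp70 that also binds Bcl2 and the proteasome, had the lowest ratio of the 10 genes. It had 843 UMIs at 7 weeks and 474 at 12 weeks, or 100.3 CPM (93.6 to 107) and 25.3 CPM (23.1 to 27.7), giving a ratio of 0.253 (0.225 to 0.283). It was past 1.5-fold lower in 9 of 9 classes, with ratios from 0.226 (0.140 to 0.366) in Naive T-like cells to 0.442 (0.253 to 0.743) in cluster 3. At 7 weeks its levels ran from 56.3 CPM in B-like to 145 CPM in Cycling-like cells, and at 12 weeks from 13.8 CPM in Naive T-like cells to 47.9 CPM in cluster 3. The ranges of the 2 ages did not overlap. All 8 neighbouring pairs of classes had overlapping intervals at each age, so the classes could hardly be ordered.

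Bag1 had a low ratio both in the class richest in the Hsp70 pair by CPM and in the poorest of the 9. In Naive T-like cells, with the highest Hsp70 pair of the 9, Bag1 had 37 and 38 UMIs in 117 and 576 cells. In Cycling-like cells, which had the lowest, it had 183 and 108 UMIs, giving a ratio of 0.286 (0.223 to 0.364). In the annotation used Bag1 shares no window with another gene and no gene overlaps it, but where its reads ended and which annotation was used for counting were not examined.

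By class, the members with at least 30 UMIs were counted past 1.5-fold, beside the percent of all genes tested in that class that were lower and higher. In cluster 3, 5 of 9 members were lower (9.37% of genes lower, 8.58% higher). In B-like cells 4 of 9 were lower (9.43% and 12.5%), and in CD8 T-like cells 4 of 9 (8.29% and 9.66%). In Cycling-like cells 3 of 9 were lower (8.95% and 7.63%), in Regulatory T-like cells 3 of 9 (9.69% and 9.34%), and in cluster 5 3 of 10 (10.5% and 13.6%). In CD4 T-like cells 2 of 9 were lower (8.18% and 8.11%), in Naive T-like cells 2 of 9 (10.9% and 10.8%), and in cluster 10 2 of 9 (8.85% and 8.59%). Hspa1b and Bag1 were among them in every class. Hspb1 in cluster 5 was the only one past 1.5-fold higher. No member other than Hspa1a, Hspa1b, Dnajb1, Hsp90aa1 and Bag1 was past 1.5-fold lower in any of the 9 classes.

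**Figure D5:**
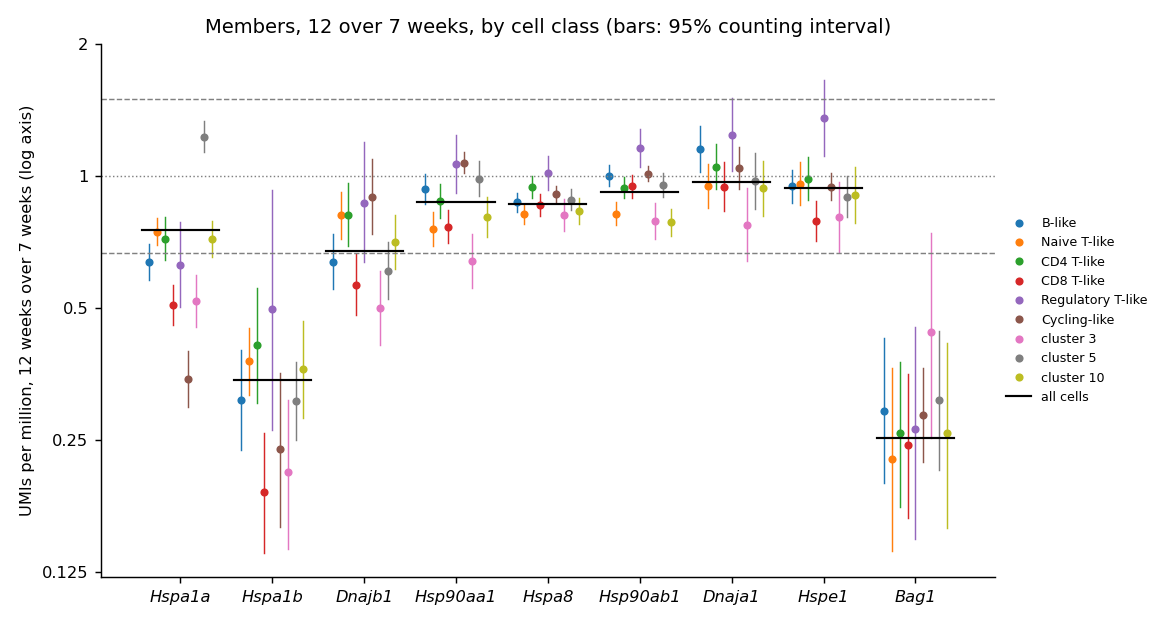
Ratio of CPM at 12 weeks over 7 weeks (vertical axis, log scale) for 9 members in 9 classes (coloured points with 95% counting intervals) and over all cells (black lines), with dashed lines at 1.5-fold and a dotted line at 1. All Hspa1b and Bag1 points lie below the lower dashed line, and those of Hspa8, Hsp90ab1, Dnaja1 and Hspe1 lie between the dashed lines (Hspb1, with few UMIs, is left out).

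The share of cells with a UMI was also lower at 12 weeks for most members once each cell was thinned to 1000 UMIs, which left out no cell. Hspa1a was found in 39.9% of cells (37.0% to 42.8%) at 7 weeks and 33.6% (31.9% to 35.4%) at 12 weeks, against 73.8% and 58.1% before thinning. Hspa1b was found in 16.7% (14.5% to 19.0%) and 6.72% (5.82% to 7.72%), against 51.9% and 25.2%. Bag1 was found in 9.95% (8.24% to 11.9%) and 2.49% (1.95% to 3.15%), against 45.1% and 14.1%. Hspa8 was found in 86.6% (84.4% to 88.6%) and 81.7% (80.2% to 83.1%), against 99.7% and 99.6%, and Hspe1 in 40.1% at both ages.

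The thinned intervals of the 2 ages did not overlap for 7 of the 10 members, and the 3 that did were Dnaja1, Hspb1 and Hspe1. The share of all genes whose thinned intervals separate in this way was not computed. The count therefore does not show whether the members differ from other genes. No class known to lack these genes was at hand, so the share that free RNA in the droplets gives could not be measured. At 1000 UMIs per cell 1 UMI equals 1000 CPM, and a cell below that level can still give a UMI. The exact intervals treat cells as independent draws from 1 library and cover counting error only.

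Detection of the members in the same cells was compared for the Hsp70 pair. In thinned cells with Hspa1b, 62.3% (54.8% to 69.3%) also had Hspa1a at 7 weeks and 57.5% (50.1% to 64.7%) at 12 weeks, against 35.4% and 31.9% of cells without it. Dnajb1 was found in 34.2% (30.1% to 38.5%) of cells with the pair at 7 weeks and 29.7% (26.9% to 32.7%) at 12 weeks, against 22.4% and 19.6% of cells without. Bag1 was found in 9.09% (6.73% to 11.9%) of cells with the pair and 10.7% without at 7 weeks, and in 1.98% (1.21% to 3.04%) and 2.79% at 12 weeks. The constitutive Hspa8 was found in 87.9% of cells with the pair and 85.4% without at the younger age, and in 84.9% and 79.9% at the older. These shares mix cell classes and are given as descriptions. The part of read sharing in the joint detection of Hspa1a and Hspa1b was not tested.

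The wider chaperone system was set beside the members from fixed lists. Of 35 other cytosolic chaperones and cofactors, 32 had at least 30 UMIs. Of these, 5 were lower by over 1.5-fold and none higher, against 8.62% and 5.61% of all genes. Their median ratio was 0.978, against 1.01 for all genes. The lowest were Bag3, a stress-induced partner of small heat shock proteins, at 17.7 and 6.63 CPM with a ratio of 0.374 (0.292 to 0.478), and the J-domain gene Dnaja4, at 13.6 and 6.52 CPM with 0.481 (0.370 to 0.627). The highest were Bag5 at 1.35 (1.12 to 1.65) and Bag2 at 1.19 (0.802 to 1.82), both nucleotide exchange factors of Hsp70. Bag1 and Bag3 were thus low and Bag2 and Bag5 were not. By class the list was less one-sided. In B-like cells 5 of 29 were lower and 5 higher, against 9.43% and 12.5% of all genes, with a median ratio of 1.12. More were higher than lower in Cycling-like and Regulatory T-like cells and as many in cluster 10. In the remaining classes more were lower than higher.

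Of 4 heat shock factor genes with enough UMIs, Hsf1, the main activator of the inducible genes, stood at 19.4 and 17.7 CPM with a ratio of 0.913 (0.754 to 1.11). Hsbp1, which binds heat shock factor 1, had 1.10 (1.02 to 1.19). Hsf2 had 0.626 (0.431 to 0.915) on 51 and 71 UMIs and Hsf4 0.534 (0.260 to 1.11) on 16 and 19 UMIs. The last interval includes 1.

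The endoplasmic reticulum and mitochondrial chaperones and the cytosolic chaperonin TRiC had no member past 1.5-fold in either direction over all cells. The 15 endoplasmic reticulum chaperones had a median ratio of 1.11, from 0.787 for Hyou1 and 0.808 for Dnajb9 to 1.21 for Pdia6 and 1.43 for Pdia4. The 9 mitochondrial chaperones had a median of 1.13, from 0.998 for Timm44 and 1.01 for Lonp1 to 1.27 for Grpel2 and 1.3 for Hspa9, the mitochondrial Hsp70. The 7 measured subunits of TRiC, which folds actin and tubulin, had a median of 1.14, from 1.04 for Cct2 and 1.08 for Cct4 to 1.2 for Cct8 and 1.26 for Cct7. Within the 9 classes TRiC had no subunit past 1.5-fold either, but the endoplasmic reticulum and mitochondrial lists did hold such genes. In B-like cells 7 of 15 endoplasmic reticulum chaperones were higher and 1 lower against 12.5% and 9.43% of all genes. In CD8 T-like cells 2 of 9 mitochondrial chaperones were higher and 1 lower against 9.66% and 8.29% of all genes.

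Of the immediate-early genes, which cells switch on within minutes of a stimulus, Ier5 had 212 and 43.5 CPM, giving a ratio of 0.206 (0.189 to 0.224), and Atf3 had 62.0 and 18.2 CPM, giving a ratio of 0.293 (0.255 to 0.337). Klf6, at 0.965 (0.921 to 1.01), and Jun, at 1.03 (0.993 to 1.07), were the highest. By class, the list's median was lowest for B-like cells (0.664) and highest for cluster 3 (0.872).

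The genes most like the summed Hsp70 pair across 18 points (9 classes in 2 libraries), out of 1193 with at least 30 UMIs at each point, were Fos (Pearson r 0.90), Jun (0.87), Ier2 (0.85), Btg2 (0.80) and Stk38 (0.80), on log2(CPM + 10). Among the members Dnajb1 had 0.89, Hspa8 0.20, Hsp90aa1 -0.22, Hsp90ab1 -0.31 and Hspe1 -0.33. For Hsp90ab1 the most like were Ube2s (0.87), Nudt21 (0.84), 1810022K09Rik (0.82), Hnrnpc (0.81) and Eif1ax (0.81), and of the members Hsp90aa1 had 0.92. The points of a library share its depth and its handling and are not independent, so no p-value is given.

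The promoters of the pair are nearly as alike as their coding sequences. In RefSeq's GRCm38.p6 table the 250 bases before the start of Hspa1a and Hspa1b differed at 3 positions (98.8% identity), and the stretch from 130 to 71 bases before the start was the same. It is shown 5' to 3' with GRCm38.p6 positions chr17:34972227-34972286 for Hspa1a and chr17:34959309-34959368 for Hspa1b, both on the minus strand. Stretches of Hspb1 (chr5:135887791-135887820, plus strand) and Hspe1 (chr1:55088053-55088082, plus strand) follow, chosen because they hold the letters that heat shock factors are known to bind, a GAA unit facing a TTC unit, in capitals.
Hspa1a: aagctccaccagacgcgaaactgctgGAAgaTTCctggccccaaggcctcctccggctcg
Hspa1b: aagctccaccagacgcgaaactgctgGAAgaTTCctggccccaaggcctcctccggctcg
Hspb1: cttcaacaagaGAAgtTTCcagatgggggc
Hspe1: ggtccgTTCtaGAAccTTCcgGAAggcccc
The letters searched on both strands were GAANNTTC and TTCNNGAA, and, as 3 units that overlap these, GAANNTTCNNGAA and TTCNNGAANNTTC.

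Of 32851 such 250-base windows, 12.8% held a match of 2 units and 0.466% one of 3 units. Hspa1a and Hspa1b each had 1 match of 2 units, at 104 bases before the start, Hspb1 had 2 and Hspe1 had 3, which made 2 matches of 3 units. The first start of Dnaja1 had 1 match, and the windows of Dnajb1 and Bag1 had none in these letters. Hspa8, Hsp90aa1 and Hsp90ab1 were not searched.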

How the data were processed

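For each library the authors deposited whole-number counts of UMIs for every gene in every barcode. Cell Ranger 1.3.1 and the mm10 build are named in the submitters' processing notes, and the annotation version, cell calling and read length are not. A barcode needed 200 or more genes and no more than 10% of its UMIs from mitochondrial genes, which removed 4 and 8. No doublet caller was run. Cells in which Cd3e and Cd79a each had at least 2 UMIs (11 and 23) were removed, as were cells in which markers of acinar, endocrine, erythroid or stromal cells made up over 2% of UMIs (2 and 15), so other doublets remain.

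Cells were clustered in scanpy 1.11.5 (Python 3.11.15) without batch integration, on log values scaled to 10000 UMIs, with 2000 variable genes, 30 principal components, a graph of 15 neighbours and a Leiden resolution of 1.0. Mitochondrial, ribosomal and Xist genes and 103 members and listed genes were barred from the variable genes. Marker lists of 25 cell types named a cluster when its 10 leading genes by fold (found in 25% of its cells or more) held 2 or more markers of a type, and more than of any other, and 3 or more markers of it were each found in 10% of cells. These thresholds were taken over from an earlier look at these data, and classes from rebuilt names may differ from the study's own.

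UMIs were summed per class and library and divided by the total, giving CPM, with exact 95% Poisson intervals. Ratios have exact conditional binomial intervals and shares exact Clopper-Pearson intervals (scipy 1.17.1). Intervals cover counting error only. A gene was called past 1.5-fold among genes with at least 30 UMIs over both libraries. The interval code was checked on simulated data. All 10 members are named. From the other lists a gene is named when it is among the 2 highest or 2 lowest ratios of its list with at least 30 UMIs. The members and lists were chosen with earlier results of these data known. Transcript windows of 50 and 100 bases came from GENCODE M21 and promoters from RefSeq, where 7 of 10 members matched. Alternatives covered scaling (edgeR 4.0.16 TMM), cell weights, filters, depth and classes.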

Additional observations from a re-analysis of the deposited data

Results flagged for a closer look

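In 7 cases a member's ratio of 12 over 7 weeks had an interval above 1 in a class while at least 1 other class had an interval below 1. These differences between classes were not tested. Hspa1a in cluster 5 had a ratio of 1.23 (1.14 to 1.33), with 8 classes below 1 and the lowest at 0.344. Hspb1 in the same cluster had 14.6 (3.88 to 123) on 2 and 70 UMIs, while the classes below 1 had under 30 UMIs each, so that their ratios are not given. Hsp90aa1 in Cycling-like cells had 1.07 (1.02 to 1.13), with 5 classes below 1.

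Dnaja1 in B-like cells had 1.15 (1.02 to 1.3), with cluster 3 below 1 at 0.775. The remaining 3 were in Regulatory T-like cells, with 59 and 98 cells. Hspe1 had 1.36 (1.11 to 1.66), Dnaja1 had 1.24 (1.03 to 1.51) and Hsp90ab1 had 1.16 (1.05 to 1.28). With Leiden resolution 0.5 this class held 88 and 168 cells and its ratios were 1.25, 0.953 and 0.986, so the last 2 did not stay above 1. The class drawn from the highest marker score gave 1.38, 1.01 and 1.11.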

How the results depend on the processing

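No paired analysis was possible because each age had 1 library, and for the same reason no library could be left out. The inducible ratio of 0.759 was 0.709 as a mean over cells. The constitutive ratio of 0.902 was 0.891 with TMM scaling, 0.878 as a mean over cells, 0.892 with all barcodes and 0.877 thinned to 1000 UMIs. The Hspa1a ratio of 0.753 was 0.683 with both genes summed. The cause of these shifts was not tested. The count of 3 members past 1.5-fold lower ran from 2 to 4, and the 7 members with separate thinned shares became 6 at 500 or 2000 UMIs. TMM factors shifted all ratios by 0.988. Across classes, 28 of 82 ratios were past 1.5-fold lower, against 28 with TMM, 29 as a mean over cells and 26 without the richest cells. Hspa1b and Bag1 gave 9 each of the 28, all from the same 2 libraries. Of all genes, from 8.18% (CD4 T-like) to 10.9% (Naive T-like) were lower by that much in a class. With the members among the variable genes, 15 of 54 ratios in the 6 named classes passed, against 18. With each class weighted alike at both ages, an alternative chosen after seeing the data, the ratios were 0.749 (inducible), 0.910 (constitutive) and 0.712 (Hspa1a). No alternative run here changed the direction of either sum. Depth limited Hspb1, Bag1 by class and Hspa1b in Regulatory T-like cells.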

Other observations

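The classes with under 50 cells in a library are given as levels only. The summed Hsp70 pair stood at 2258 CPM (2058 to 2472) in 19 Macrophage-like cells at 7 weeks and 1160 CPM (1072 to 1255) in 47 at 12 weeks. In Plasmacytoid DC-like cells it stood at 1137 CPM (1016 to 1268, 31 cells) and 918 CPM (831 to 1010, 55 cells), and in cDC1-like cells at 1522 and 1535 CPM (11 and 23 cells). In NK-like cells it stood at 701 and 508 CPM (25 and 18 cells). In cluster 18, led by Ccl4, Ccl3, Lag3 and Il10 (27 and 80 cells), it stood at 1477 CPM (1291 to 1683) and 587 CPM (515 to 666). The ILC2-like value of 3032 CPM at 7 weeks came from 12 cells and that of 1064 CPM at 12 weeks from 20 cells, of which 1 held 59.8% of the UMIs. In Plasma cell-like cells the pair was higher in the later library, at 183 CPM (105 to 298) in 3 cells and 587 CPM (507 to 675) in 21 cells. In cluster 11 it stood at 1619 and 1176 CPM (11 and 5 cells), and in Acinar-like cells at 1848 and 1074 CPM (1 and 9 cells).

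Bag1 stood lower at 12 weeks in all of these classes but Acinar-like cells, which had 0 Bag1 UMIs at both ages. It had 101 and 36.8 CPM in Macrophage-like cells, 74.1 and 26.6 CPM in Plasmacytoid DC-like cells, 105 and 15.6 CPM in cDC1-like cells and 144 and 39.0 CPM in cluster 18, on 6 to 25 UMIs each. In NK-like cells Bag1 had 22 UMIs in 25 cells at 7 weeks and 1 UMI in 18 cells at 12 weeks. It had 77.0 and 10.4 CPM in ILC2-like cells, 68.8 and 15.1 CPM in Plasma cell-like cells and 54.6 and 0 CPM in cluster 11, on 0 to 6 UMIs each.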
